A study of Mus musculus with 8 samples.

Results

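The cytosolic ribosomal protein genes were followed in RNA-seq of CD8 T cells sorted from mouse lymph node as Ly6C+CXCR3+, a surface phenotype that the submitters call memory phenotype. Members were all genes whose symbol is Rpl or Rps followed by a digit, together with Rplp0, Rplp1, Rplp2 and Rpsa, leaving out rows marked as pseudogenes by -ps and the Rps6k kinases. The rule found 89 of the 13245 genes listed. They were divided into 46 genes of the large subunit, 31 of the small subunit, 11 paralogues or retrocopies, and Rps19bp1, which fits the naming rule but encodes a protein that binds Rps19. No measured value entered the rule. The study compared C57BL/6 mice (B6, genotype B6 in the labels) with CD103Tg mice, which overexpress CD103, an integrin chain and the product of Itgae, with 4 libraries per group. No treatment, age or sex is given in the labels, and the sources used here do not give the promoter that drives the transgene.

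Each cytosolic ribosome carries one copy of nearly every ribosomal protein. The small subunit reads the messenger RNA and the large subunit forms the peptide bond. Messenger RNAs of vertebrate ribosomal proteins begin with a C followed by a run of pyrimidines, the 5′ terminal oligopyrimidine or TOP motif, through which the kinase mTOR and the binding protein Larp1 control their translation and stability together. In T cells, ribosome production rises on activation as cells grow and divide. Several genes have a second copy whose product can take the place of the parent protein, among them Rps27l, a known target of p53, and Rpl22l1, whose parent Rpl22 is needed for the development of alpha-beta T cells and is known to repress it.

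Values were deposited CPM, which are read counts brought to one library size after TMM scaling. The listed genes held an estimated 50187279 to 56371476 reads per library. The subunit genes were read deeply, at 2211 estimated reads or more in every library, the fewest being for Rps21 in CD103Tg library 2, so counting error was small beside the spread between libraries. Itgae was at 37.5 to 174 CPM in B6 and 3469 to 5509 CPM in CD103Tg, and Cd8a, Cd8b1, Ly6c2 and Cxcr3 were present in all 8 libraries at 415 CPM or more, in keeping with the labels. The test was limma on log2(CPM + 1), for genes averaging 1 CPM or more. A gene is said to have risen or fallen only where its Benjamini-Hochberg adjusted p over all 11503 tested genes was under 0.05, and fold changes are CD103Tg against B6. Nothing in the labels ties the replicates to separate animals. The p-values therefore measure the spread between these samples, which may be technical.

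The genes around which the results turn are a small-subunit gene, Rps27, and its copies. Their spliced coding sequences (GENCODE M21, GRCm38, 5′ to 3′) are shown because Rps27 fell while Rps27l rose, and because they bear on which reads can be told apart. Rps27 lies on the minus strand of chr3:90212725-90213615 and Rps27l on the plus strand of chr9:66946175-66949357, each span running from start to stop codon with its introns. In Rps27l the 61 of 255 bases that differ from Rps27 are in capitals.
Rps27: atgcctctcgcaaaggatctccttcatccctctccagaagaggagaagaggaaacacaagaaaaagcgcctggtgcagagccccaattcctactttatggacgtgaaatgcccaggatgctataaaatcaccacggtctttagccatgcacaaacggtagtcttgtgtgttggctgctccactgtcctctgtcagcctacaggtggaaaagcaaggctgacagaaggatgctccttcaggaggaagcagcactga
Rps27l: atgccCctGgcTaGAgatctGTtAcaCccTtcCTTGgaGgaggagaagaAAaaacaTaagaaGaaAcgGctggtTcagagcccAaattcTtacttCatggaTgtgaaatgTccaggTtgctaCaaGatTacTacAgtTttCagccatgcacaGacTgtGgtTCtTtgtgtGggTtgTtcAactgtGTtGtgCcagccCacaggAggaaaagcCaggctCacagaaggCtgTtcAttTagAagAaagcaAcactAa
The differences are spread along the whole length, leaving 76.1% identity. The retrocopy Rps27rt, without introns on the minus strand of chr9:114982453-114982707, was identical to Rps27 at all 255 coding bases, so reads from the coding part of these 2 genes cannot be told apart and the values of Rps27rt are uncertain.

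The start sites of 65 of the 89 members matched a RefSeq promoter entry (GRCm38.p6). The 20 bases before and 20 after the annotated start are shown for genes that fell, genes that did not pass the test and copies, with every run of at least 5 C or T in capitals, to let the pyrimidine runs be compared.
Rps27 (fell, chr3:90213629-90213668, minus strand): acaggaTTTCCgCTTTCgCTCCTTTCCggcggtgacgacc
Rps6 (fell, chr4:86857348-86857387, minus strand): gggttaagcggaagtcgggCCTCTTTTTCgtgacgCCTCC
Rpl15 (fell, chr14:18270967-18271006, minus strand): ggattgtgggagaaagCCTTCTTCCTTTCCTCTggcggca
Rpl28 (did not pass, chr7:4792945-4792984, plus strand): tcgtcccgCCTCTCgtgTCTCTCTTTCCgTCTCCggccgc
Rplp2 (did not pass, chr7:141447631-141447670, plus strand): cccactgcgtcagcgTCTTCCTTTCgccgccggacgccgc
Rps27l (rose, chr9:66946066-66946105, plus strand): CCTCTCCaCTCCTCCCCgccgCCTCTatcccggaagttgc
Rpl22l1 (fell, chr3:28805488-28805527, plus strand): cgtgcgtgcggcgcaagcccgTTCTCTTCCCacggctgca
Rpl7l1 (did not pass, chr17:46782637-46782676, minus strand): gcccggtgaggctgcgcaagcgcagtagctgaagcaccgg
Runs of at least 8 C or T on the sense strand, from 20 bases before to 40 after the start, were present in 43 of the 65 members (66.2%), in 23.6% of 8478 other tested genes and in 24.7% of all 27025 promoters. The run was present in 10 of the 18 matched members that fell (55.6%) and in 32 of the 45 tested members that did not pass (71.1%), so genes with and without a pyrimidine run were found on both sides of the threshold. In the same window CTTTCC, one of the spellings within such runs, was present in 27.7% of members and 3.16% of other tested genes. Another spelling, CTCTTT, was present in 23.1% of members and 2.30% of other tested genes, in 1 of the 18 members that fell (5.56%) and in 14 of the 45 that did not pass (31.1%), a difference that was not tested. The letters CGGAAG, known as the core of ETS factor sites, with a reverse complement, CTTCCG, that can overlap a pyrimidine run, were present on either strand of the 300-base entries of 67.7% of members and 38.7% of other tested genes. The E-box CACGTG, the letters that Myc binds, was present in 9.23% of members and 12.3% of other tested genes. These are descriptions of letters near annotated starts.

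Ribosomal protein messenger RNA was on average less abundant in CD103Tg, with a large spread between B6 libraries. The 89 members summed to 37257, 31967, 41866 and 29604 CPM in B6 libraries 1 to 4 and to 32404, 26495, 27699 and 29270 CPM in CD103Tg libraries 1 to 4. The B6 mean was 35173 ± 5490 and the CD103Tg mean 28967 ± 2557 (SD, n = 4), a difference of -17.6% or -6206 CPM, which was -3976 CPM without B6 library 3. B6 libraries 1 and 3 were above all CD103Tg libraries, while B6 library 4 was below CD103Tg library 1, so the groups overlapped. In these bulk samples, a change in the share of cells that express the genes and a change of RNA per cell cannot be told apart.

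**Figure D1:**
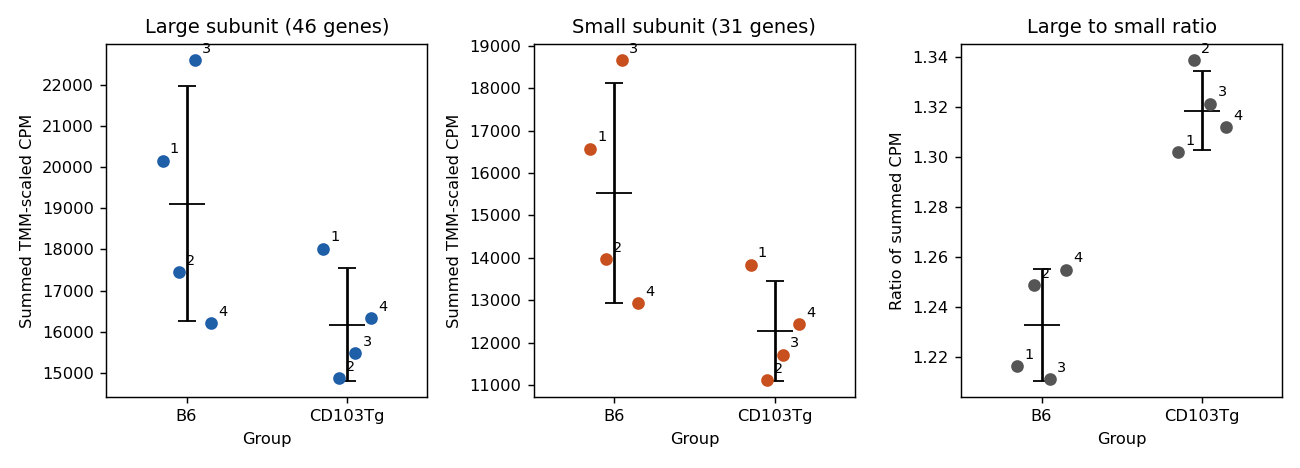
Summed TMM-scaled CPM of the 46 large-subunit genes (left) and the 31 small-subunit genes (middle) and their ratio (right), by group. Points are libraries with their replicate number, the long bar is the mean and the whiskers are ± 1 SD. The vertical axes do not start at 0. The sums overlap between groups, while all 4 CD103Tg ratios lie above all 4 B6 ratios.

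Of the 87 members tested, 27 fell (31.0%), beside 13.8% of all tested genes called lower, and 1 rose, beside 17.4% called higher. The other 59 did not pass the test. The median log2 fold change of the tested members was -0.26, beside -0.005 for all tested genes, and ranged from -0.17 to -0.35 when 1 library was left out. Groups did not overlap, in either direction, for 10 of the 87 (11.5%), a smaller share than the 31.0% of all tested genes. CD103Tg was wholly below B6 for 9 of the 87 (10.3%), near the 13.6% of all tested genes. The share of members called lower was thus above that of all tested genes, while the share separate in that direction was not. The count of 27 rested on single libraries. It was 9 without B6 library 1, 10 without B6 library 3, 52 without B6 library 4, 8 without CD103Tg library 2, 11 without CD103Tg library 3 and 16 without CD103Tg library 4. It was 39 without CD103Tg library 1 and 26 without B6 library 2. Rpl22l1, Rps19, Rps20, Rps27, Rps27rt, Rps28, Rps29 and Rps3a1 were called lower under each of these and under all other alternatives run on the uncentred values.

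**Figure D2:**
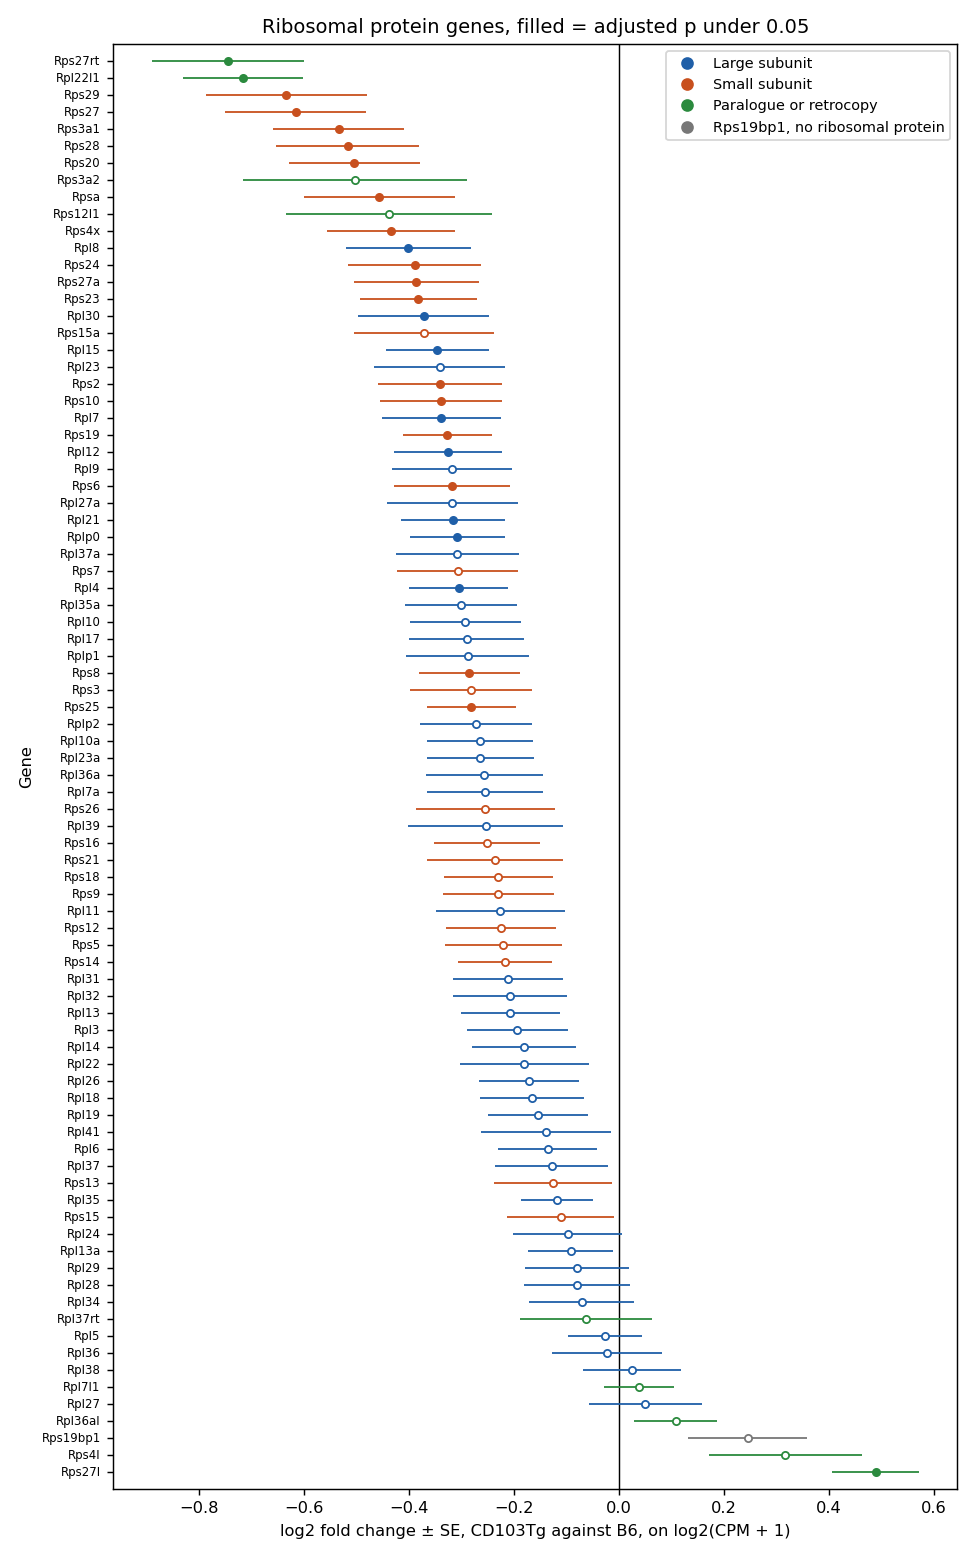
Log2 fold change of 84 of the 87 tested members, CD103Tg against B6 on log2(CPM + 1), with bars of ± 1 SE from limma. Filled points passed an adjusted p of 0.05, and colour gives the subunit or copy class. Nearly all genes lie left of 0, small-subunit genes crowd the lower end, and the only filled point on the right is Rps27l.

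The subunits are given side by side, with no test between them. In the small subunit 17 of 31 genes fell (54.8%), all 31 fold changes were negative, and the median was -0.32. In the large subunit 8 of 46 fell (17.4%, near the 13.8% of all tested genes called lower), 44 fold changes were negative, and the median was -0.22. The groups did not overlap for 7 small-subunit genes (22.6%, beside 13.6% of all tested genes with CD103Tg below) and for 0 of the 46 large-subunit genes. The ratio of summed large-subunit to small-subunit CPM was 1.22, 1.25, 1.21 and 1.25 in B6 and 1.30, 1.34, 1.32 and 1.31 in CD103Tg. The sums of each subunit overlapped, but their ratio was higher in each CD103Tg library than in any B6 library. Within each group the libraries with higher sums had the lower ratios, so the library level did not fully cancel in the ratio. No test was made of this ratio, since it is a score over the members.

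The largest falls among the 77 subunit genes were in Rps29 and Rps27, both small proteins that bind zinc. Rps27 was at 728, 615, 892 and 552 CPM in B6 and 526, 404, 414 and 454 CPM in CD103Tg. All CD103Tg libraries were below all B6 libraries, with a log2 fold change of -0.62 ± 0.13 (SE) and an adjusted p of 0.00516. Rps29, a protein of the small-subunit head, was at 394, 325, 477 and 274 CPM in B6 and 262, 197, 213 and 260 CPM in CD103Tg. Its groups did not overlap either, though B6 library 4 and CD103Tg library 1 were close, and the fold change was -0.63 ± 0.15 (adjusted p = 0.00898).

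In the head of the small subunit, which holds the messenger and transfer RNAs in place, 8 of 14 genes fell, with a median of -0.30. That is 57.1%, near the 54.8% of the whole small subunit, beside 13.8% of all tested genes called lower. Rps28 was at 176 to 294 CPM in B6 and 138 to 173 in CD103Tg, and fell by 0.52 on the log2 scale (adjusted p = 0.0144). Rps20 was at 219 to 325 CPM in B6 and 154 to 206 in CD103Tg, and fell by 0.50 (adjusted p = 0.0104). Rps19, the gene most often mutated in Diamond-Blackfan anaemia, was at 1238, 1140, 1421 and 1095 CPM in B6 and 1068, 969, 904 and 949 CPM in CD103Tg. Its groups did not overlap, and it fell by 0.33 ± 0.09 (adjusted p = 0.0139). Rps18, among the 5 small-subunit genes with the highest CPM, did not pass (-0.23, adjusted p = 0.118), nor did Rps12 (-0.22, adjusted p = 0.133).

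In the body and platform of the small subunit 9 of 17 genes fell, with a median of -0.32. That is 52.9%, near the 54.8% of the whole small subunit, beside 13.8% of all tested genes called lower. Rps3a1, on the platform where initiation factors bind, was at 932, 792, 1057 and 694 CPM in B6 and 672, 507, 575 and 628 CPM in CD103Tg. Its groups were separate, and it fell by 0.53 ± 0.12 (adjusted p = 0.00763). Rps4x, a protein of the body, fell by 0.43 (adjusted p = 0.0191) and Rps23, a protein of the decoding centre, by 0.38 (adjusted p = 0.0229). Rpsa, also known as the laminin receptor, was at 705 to 1141 CPM in B6 and 610 to 771 CPM in CD103Tg and fell by 0.46 (adjusted p = 0.0322). Rps2 (-0.34, adjusted p = 0.0485) and Rps6, the protein phosphorylated by the S6 kinases (-0.32, adjusted p = 0.049), were just inside the threshold. Each missed it in 8 of 20 alternative settings, with adjusted p up to 0.136 and 0.141. Rps21 and Rps26, among the least abundant, did not pass, at -0.24 and -0.25.

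**Figure D3:**
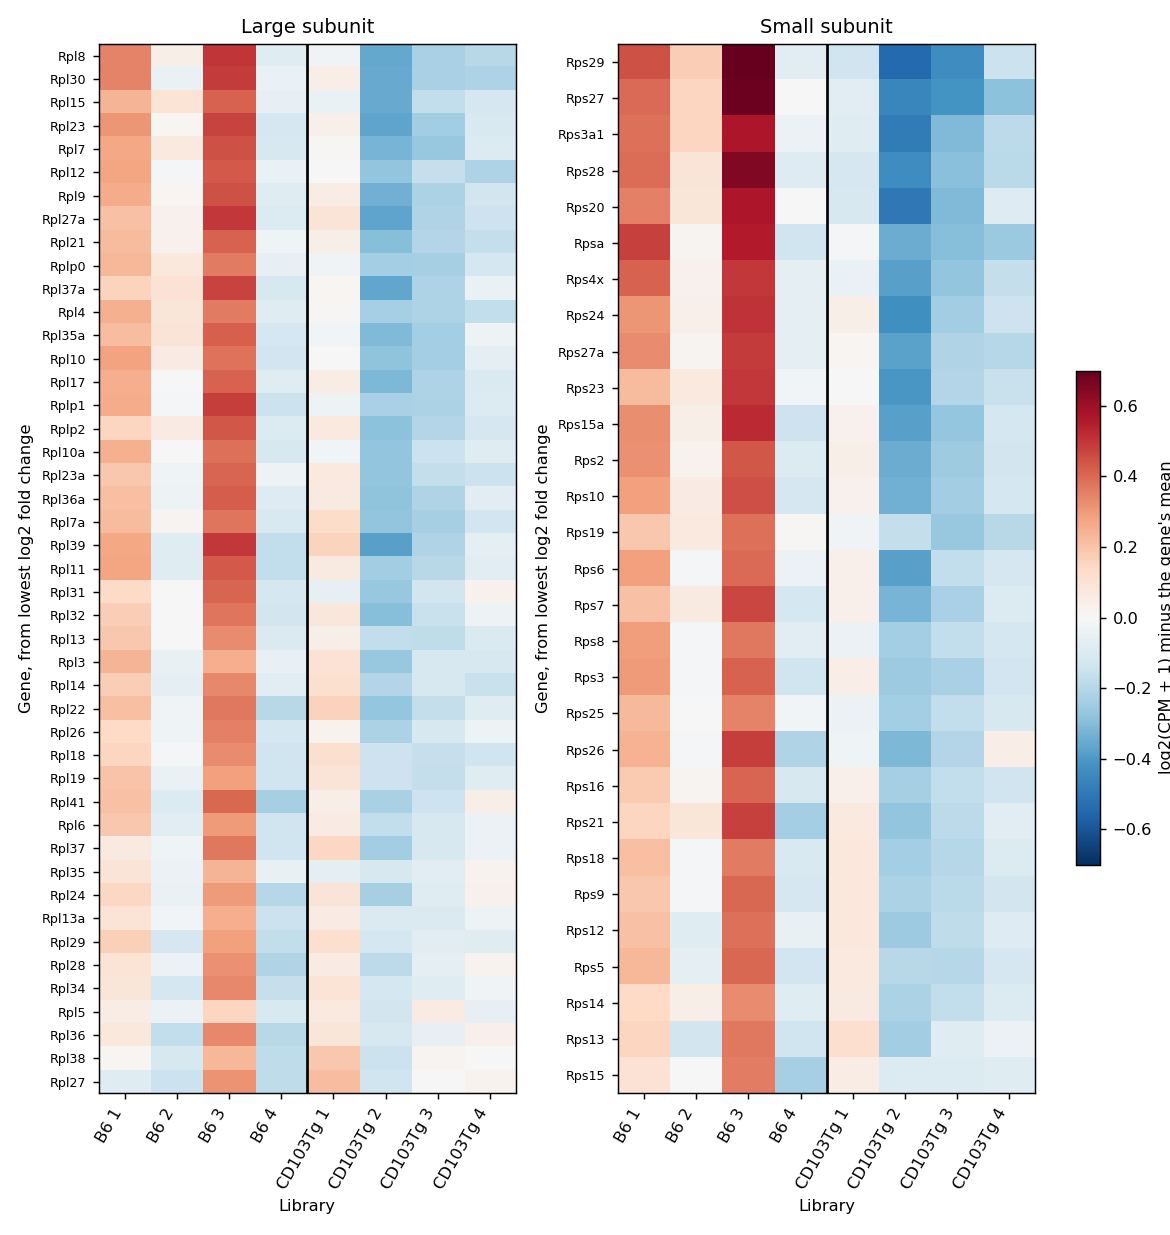
Deviation of log2(CPM + 1) from each gene's mean over the 8 libraries, for genes of the large subunit (left) and the small subunit (right) that are reported here, with genes ordered from the lowest log2 fold change and the black line separating B6 from CD103Tg. Red is above and blue below the gene's mean. B6 library 3 is the reddest column in both panels and CD103Tg library 2 is mostly the bluest, while B6 library 4 resembles the CD103Tg columns.

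In the large subunit, the stalk that recruits elongation factors is made of Rplp0, Rplp1 and Rplp2 on a base that includes Rpl12. Rplp0 was at 1319, 1186, 1449 and 1082 CPM in B6 and 1106, 954, 957 and 1033 CPM in CD103Tg. B6 library 4 was below CD103Tg library 1, and the gene fell by 0.31 ± 0.09 (adjusted p = 0.0237). Rpl12 fell by 0.33 (adjusted p = 0.0336). Rplp1 (-0.29, adjusted p = 0.0846) and Rplp2 (-0.27, adjusted p = 0.0767) had fold changes of like size and did not pass. Rpl5 and Rpl11, which with the 5S ribosomal RNA form the particle that can bind Mdm2, gave 0 calls of 2 with limma and with voom, and 0 at an unadjusted p under 0.05. Rpl5 was at 67.1 to 80.3 CPM in B6 and 66.2 to 76.0 CPM in CD103Tg, a fold change of -0.03 ± 0.07 (adjusted p = 0.81), and Rpl11 differed by -0.23 ± 0.12 (adjusted p = 0.193). Of the 7 proteins around the exit of the peptide tunnel, 0 passed the test with limma or voom and 2 had an unadjusted p under 0.05, with a median of -0.21. The smallest adjusted p there was 0.0676, for Rpl17.

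Other large-subunit genes that fell included Rpl15, at 395 to 547 CPM in B6 and 321 to 397 CPM in CD103Tg (-0.35 ± 0.10, adjusted p = 0.0194), Rpl4 (-0.31, adjusted p = 0.0306) and Rpl7 (-0.34, adjusted p = 0.0419). Rpl13 and Rpl3, both among the 5 large-subunit genes with the highest CPM, did not pass, at -0.21 and -0.19. Rpl10, which joins the subunit late in its assembly, did not pass at -0.29 (adjusted p = 0.0564), nor did Rpl39 at -0.25 (adjusted p = 0.222). Rpl28, one of the 3 with the lowest CPM, differed by -0.08. Rpl36 (-0.02), Rpl38 (0.03) and Rpl5 had the fold changes nearest 0 of all tested members. Fau and Rack1, ribosomal proteins that the naming rule misses, differed by -0.18 (adjusted p = 0.294) and -0.19 (adjusted p = 0.0962) and did not pass.

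The subunit genes rose and fell together from library to library within each group. B6 library 3 was the highest B6 library for 77 of the 77 genes and B6 library 4 the lowest for 75. The full order of B6 libraries 3, 1, 2 and 4 held for 75 genes (97.4%) and for 7.71% of the other tested genes. Among CD103Tg libraries, library 1 was the highest for 72 genes and library 2 the lowest for 71. For 69 of the 77 genes CD103Tg library 1 was above B6 library 4. The first principal component of the 77 genes held 93.5% of their variance, and 95.1% after removing the group means, beside 66.4% and 28.7% for all tested genes. Components of few genes and of many are not on one footing, and the genes share their libraries, so these are descriptions. The median deviation of members from their own means ranged over 0.52 within B6 and 0.30 within CD103Tg, on a log2 scale, while the group means differed by -0.25. The range within B6 was thus larger than the difference of the group means, though a range and a difference of means are unlike measures. In the summed CPM of the 89 members, the B6 SD of 5490 was smaller in size than the group difference of -6206. Estimated reads of B6 libraries 3, 1, 2 and 4, from the highest to the lowest in members, were 53055867, 54598256, 50332344 and 56371476, and the part of depth in the order was not tested.

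The summed signal of the mitochondrially encoded genes had the same order in B6, though only 6 of the 16 tested genes (37.5%) had it one by one. Over the 18 listed genes it was 21705, 19166, 23272 and 17433 CPM in B6 and 13393, 11422, 10931 and 11665 CPM in CD103Tg, with no overlap. Whether what orders the B6 libraries in these genes also orders the ribosomal protein genes was not tested. The fold changes were also set beside transcript length and abundance. Across members, Spearman's rho of the fold change was -0.09 with transcript length (83 genes) and -0.22 with mean CPM (87 genes). Of members with transcripts over 800 nt, 16 of 33 fell (48.5%, median -0.31). Of those with transcripts of at most 800 nt, 11 of 50 fell (22%, median -0.23), a difference that was not tested. Tested genes outside the rule with transcripts of at most 800 nt (515 genes) had a median of 0.04. The 2731 genes outside the rule that averaged at least 86.5 CPM had a median of 0.01, and 13.5% of them were called lower.

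Because members shared a level in each library, a fit in which each library was centred on the members' median was added after seeing the data. It asks which members differ from the rest of the ribosomal proteins, and not whether the whole set changed. In it 4 members were lower (2.24% of all tested genes were lower on this scale) and 2 higher (18.9% of all tested genes). The lower ones were Rps27 (-0.36, adjusted p = 0.0437), Rps29 (-0.38, adjusted p = 0.0485), Rps27rt (-0.49, adjusted p = 0.0276) and Rpl22l1 (-0.46, adjusted p = 0.03). The higher ones were Rps27l (0.74, adjusted p = 0.000904) and Rps19bp1 (0.50, adjusted p = 0.046). Of the 46 large-subunit genes 0 passed with limma, and 1 had an unadjusted p under 0.05. All of these but Rpl39 had a larger SE than in the main fit, as Rpl15 did (0.13 beside 0.10). Centring puts the subtracted level into all other genes, towards whose variances limma draws each SE. The lack of calls therefore does not show that the large-subunit genes kept to the median. Over the fits that leave out 1 library, the lower calls ranged from 0 to 4 and the higher calls from 1 to 3. Lower calls numbered 0 without B6 library 1 or 2 or without CD103Tg library 2, 3 or 4, and 1 without CD103Tg library 1.

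The paralogues and retrocopies did not share one direction. Of the 11, 9 were tested, 2 fell (22.2%), 1 rose and 6 did not pass, with a median of -0.06. Over all tested genes 13.8% were called lower and 17.4% higher. Rpl39l, at 0.33 to 1.57 CPM, and the processed pseudogene Rpl6l, at 0.26 to 0.59 CPM, were below the filter. Rps27l was at 51.2, 63.3, 61.3 and 48.6 CPM in B6 and 80.2, 79.7, 76.3 and 78.6 CPM in CD103Tg. Every CD103Tg library was above every B6 library, and the gene rose by 0.49 ± 0.08 on the log2 scale (adjusted p = 0.00104). It was higher in all 20 alternative settings, by 0.42 to 0.55 with adjusted p from 0.000698 to 0.00518. Rpl22l1 was at 83.0, 72.4, 88.4 and 61.7 CPM in B6 and 51.3, 40.5, 42.1 and 49.7 CPM in CD103Tg, again with no overlap, and fell by 0.72 ± 0.11 (adjusted p = 0.00067). Rps27rt, at 31.8 to 48.8 CPM in B6 and 19.1 to 29.2 CPM in CD103Tg, fell by 0.75 ± 0.14 (adjusted p = 0.00257), with the uncertainty that its coding sequence is that of Rps27.

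**Figure D4:**
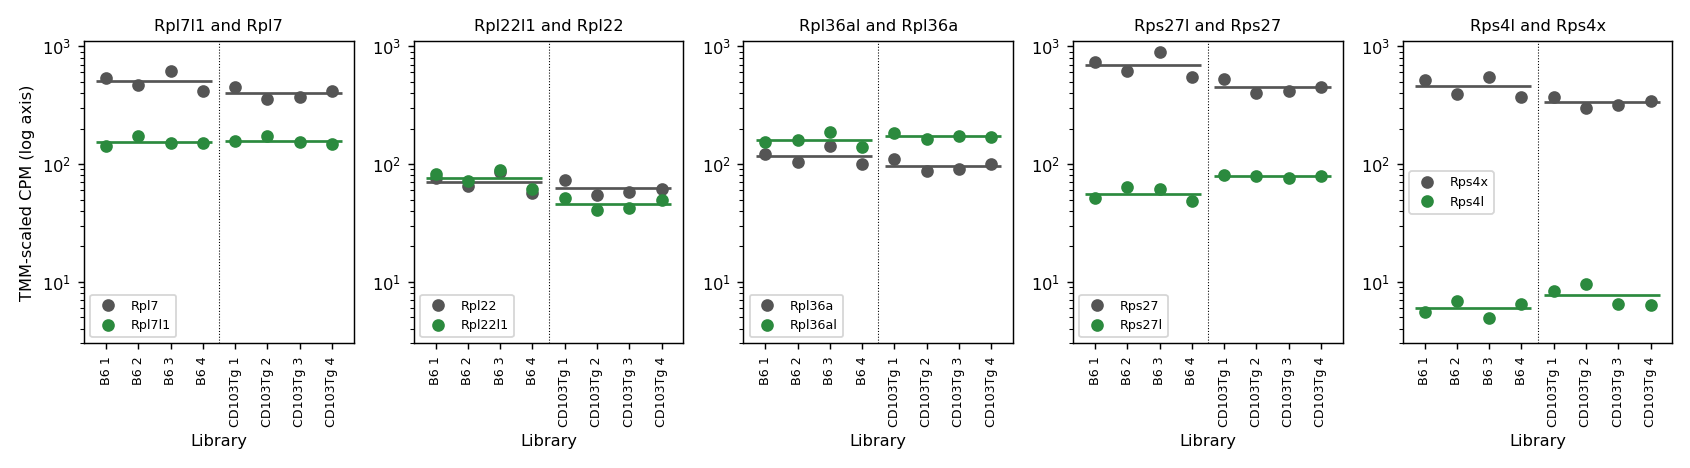
TMM-scaled CPM (log axis) of each copy (green) and its parent (grey) in the 8 libraries, with group means as lines and the dotted line between B6 and CD103Tg. Rps27l lies higher and Rps27 lower in CD103Tg, Rpl22l1 passes from level with Rpl22 to below it, and Rpl7l1 stays near one level.

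Comparing a copy with its own parent removes a library level only as far as both share it. Of the copies compared here, only Rpl22l1 had its parent's order of the B6 libraries. The ratios of the other copies thus also carry the parent's library level and its group difference. Of 8 pairs considered, 5 had both genes tested. Rpl3l and Rpl10l are not in the table, where Rpl3 and Rpl10 are, and Rpl39l was below the filter. Each ratio, of values with 1 CPM added, was compared between groups with a two-sided exact permutation test over 70 assignments, whose smallest p is 0.0286, adjusted over the 5 pairs. The log2 ratio of Rps27l to Rps27 was -3.80, -3.26, -3.84 and -3.48 in B6 and -2.70, -2.33, -2.42 and -2.52 in CD103Tg. Rps27l thus stayed the minor transcript, and its ratio to Rps27 was 2.15-fold higher in CD103Tg (difference 1.11, exact p = 0.0286, adjusted p = 0.0357). The groups did not overlap for either gene, in opposite directions, so this exact p had to be the smallest possible. It adds nothing to the results of the 2 genes. Per kilobase of transcript, Rps27l was at 112 and Rps27 at 2020 in B6, and at 158 and 1302 in CD103Tg. The ratio of Rpl22l1 to Rpl22 was 0.12, 0.16, 0.05 and 0.11 in B6 and -0.52, -0.42, -0.46 and -0.31 in CD103Tg. The 2 genes were thus near equal CPM in B6, and the copy was the lower in CD103Tg (difference -0.54, exact p = 0.0286, adjusted p = 0.0357). Rpl22 itself was at 57.2 to 85.1 CPM in B6 and 54.4 to 73.7 CPM in CD103Tg, and did not pass (-0.18, adjusted p = 0.299).

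Rpl36al, a copy of Rpl36a, was the more abundant of its pair in every library. Its log2 ratio to Rpl36a was 0.32 to 0.63 in B6 and 0.72 to 0.92 in CD103Tg (difference 0.36, exact p = 0.0286, adjusted p = 0.0357), although neither gene passed the test on its own. The ratio of Rps4l to Rps4x differed by 0.75 at the same p, but Rps4l, a transcribed processed pseudogene, was at 4.89 to 9.66 CPM and may share reads with its parent. Without CD103Tg library 1, 2, 3 or 4, which leaves 35 assignments, the exact p was 0.0571 for the Rpl36al pair and 0.0857 to 0.114 for the Rps4l pair, and without B6 library 3 it was 0.0571 for the latter. The ratio of Rpl7l1, a protein of pre-ribosome assembly, to Rpl7 was -2.0 to -1.45 in B6 and -1.52 to -1.05 in CD103Tg. These overlapped (difference 0.38, exact p = 0.171, adjusted p = 0.171), and Rpl7l1 itself differed by 0.04 ± 0.07. The coding sequences of Rpl22 and Rpl22l1 were 71.2% identical, those of Rpl36a and Rpl36al 87.9% and those of Rpl7 and Rpl7l1 61.8%.

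The rest of the translation machinery was read through lists, beside 13.8% of all tested genes called lower and 17.4% called higher. Of 26 other genes with known TOP messengers, 8 fell (30.8%) and 1 rose (3.85%), with a median of -0.22. Fau and Rack1 are among them. Npm1, a chaperone of ribosome assembly, fell by 0.35 (adjusted p = 0.0108) and Eef1a1, which brings transfer RNA to the ribosome, by 0.44 (adjusted p = 0.0286), while Vim, of intermediate filaments, rose by 0.63 (adjusted p = 0.000112). Both group orders of the libraries described above held for 59 of the 77 subunit genes (76.6%), for 6 of these 26 genes and for 0.604% of the tested genes that are no members. Of 14 elongation and termination factors 5 fell (35.7%) and 2 rose (14.3%), with a median of -0.12. Eif5a, the factor that helps ribosomes through stretches of proline, rose by 0.22 (adjusted p = 0.0113). Of 38 initiation factors 5 fell (13.2%, near the share of all tested genes) and 3 rose (7.89%), with a median of -0.03, Eif4a2 falling by 0.41 (adjusted p = 0.00167) and Eif4h rising by 0.19 (adjusted p = 0.00599).

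Of 87 genes of RNA polymerase I and ribosome assembly, 14 fell (16.1%, near the 13.8% of all tested genes) and 5 rose (5.75%), with a median of -0.08. Rrp1b rose by 0.52 (adjusted p = 0.00144), while Mdn1, which strips factors from the large subunit, fell by 0.57 (adjusted p = 0.00235) and Ltv1, an assembly factor of the small subunit, fell by 0.32 (adjusted p = 0.00181). Of 13 chaperones of single ribosomal proteins, 1 fell, and it was Ltv1. The 79 mitochondrial ribosomal proteins had a positive median, 0.10, with 2 lower (2.53%) and 15 higher (19.0%, near the 17.4% of all tested genes), Mrpl18 by 0.33 (adjusted p = 0.0013). Of 26 genes of the Myc network and of mTOR control of translation, 5 rose and 5 fell (19.2% each), with a median of 0.02. Mxd3, an antagonist of Myc, was at 1.63 ± 0.42 CPM in B6 and 9.87 ± 1.49 in CD103Tg (SD, n = 4), and rose by 2.05 (adjusted p = 3.4e-06). Rptor, the mTOR complex subunit, rose by 0.44 (adjusted p = 0.00189) and Larp1, which binds TOP messengers, by 0.28 (adjusted p = 0.00192). Myc itself also rose, by 0.30 (adjusted p = 0.0104). Of the 5 that fell, Eif4ebp1 had the smallest p, and it fell by 0.47 (adjusted p = 0.00245).

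Of the 23 tested genes of the p53 response, in which Rps27l was not listed, 8 rose (34.8%) and 4 fell (17.4%), with a median of 0.10. Sesn2 rose by 0.95 (adjusted p = 3.17e-05) and Gtse1 by 1.17 (adjusted p = 0.000188). Cdkn1a, an inhibitor of cell cycle kinases, averaged 0.29 ± 0.20 CPM in B6 and 4.03 ± 2.12 in CD103Tg (SD, n = 4), and rose by 1.88 (adjusted p = 0.000298). Among the 4 that fell were Bbc3, by 0.73 (adjusted p = 0.00248), and Trp53 itself, by 0.21 (adjusted p = 0.00737). The list thus did not move in one direction. Of 23 genes linked to Diamond-Blackfan anaemia, an inherited shortage of red cell precursors, 9 fell (39.1%) and 0 rose, with a median of -0.31. This list is made up almost wholly of members, of which 31.0% fell, and the 9 are already counted among those. Of these 9, all but Rpl15 belong to the small subunit, in which 54.8% fell.

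Markers of other cell types also differed between the groups. Their counts of calls stand beside 13.8% of all tested genes called lower and 17.4% called higher, and the lists are short. The summed CPM of 8 T cell and CD8 genes was 8298 to 9432 in B6 and 7636 to 8607 in CD103Tg, with 2 of 8 lower. Dendritic cell markers summed to 21.1 to 34.5 CPM in B6 and 82.0 to 109 CPM in CD103Tg, with 6 of 7 higher. Plasma cell markers summed to 61.1 to 78.9 and 102 to 226 CPM, with 3 of 3 higher. Xbp1 alone was at 58.7 to 76.2 CPM in B6 and 92.8 to 114 CPM in CD103Tg. Igkc was at 0.222 to 2.32 CPM in B6 and spread from 5.77 to 85.2 CPM in CD103Tg. NK and innate lymphoid markers summed to 164 to 192 and 319 to 398 CPM, with 4 of 4 higher, mostly through Eomes, which CD8 T cells also express. Myeloid markers summed to 62.9 to 133 and 86.4 to 182 CPM, with 2 of 6 higher. B cell markers summed to 829 to 919 and 348 to 549 CPM, mostly through Ighm, with 2 of 5 lower and 2 higher, and the 1 stromal marker tested, Pecam1, fell by 0.46 (adjusted p = 0.00125). CD4 T cell markers summed to at most 1.95 CPM, and Cd4 and Foxp3 were not in the table. The part of these differences in the ribosomal protein values was not tested.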

How the data were processed

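The authors deposited 1 gene table covering the 8 libraries. Per the labels it holds CPM scaled by TMM for filtered genes, a normalized signal and not counts. The sources used here do not give the rule of that filter. Per the labels' protocols, RNeasy Plus Mini was used for RNA and the SMART-Seq v4 and Nextera XT kits for libraries, which do not mark the strand and carry no molecular identifiers. The builds GRCm38 and mm10 and the tools STAR 2.7.0f, RSEM, cutadapt 1.18 and bcl2fastq 2.17 are listed in the submitters' processing notes. All 13245 gene IDs matched GENCODE M21, which gave lengths, coordinates and coding sequences.

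One read was worth 0.0171 to 0.0203 CPM, and 63.0% to 65.2% of values were whole reads within 0.005 of a read, so counts are estimates. RSEM divides reads among near-identical genes, so copies are uncertain. Columns summed to 962335 to 1022065. Between replicates the chi-square of reads per degree of freedom was at least 22.0, so no library was a copy of another.

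Genes averaging 1 CPM or more were fitted by limma 3.58.1 (R 4.3.3) on log2(CPM + 1) values (lmFit, eBayes with trend, genotype only, two-sided, Benjamini-Hochberg over 11503 genes). Of these, 3592 (31.2%) were called, 2000 higher and 1592 lower. By quantile normalization these were 1744 higher and 1989 lower, and with equal totals 1756 and 1848. The fit was tested on simulated data. Python 3.11.15 with numpy 2.4.6, pandas 2.3.3, Biopython 1.88 and matplotlib 3.10.9 did the rest.

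The genes named are every member called higher, the 12 called lower with the smallest p, both genes of each copy pair, the 5 highest and 3 lowest per subunit by mean CPM, untested members, stalk and 5S particle genes, Fau and Rack1, the 3 members nearest 0, and genes among the 3 with the smallest p in each list. Myc, Eif4ebp1, Bbc3 and Trp53 are named as well. A few genes are not reported here or drawn, though counts and sums include them. Members and lists were chosen with earlier results of these data known. The settings varied were the pseudocount (0.1 and 5), the filter (none and 5 CPM), the scaling (equal totals, median of ratios, quantile), limma voom on estimated reads, a replicate block, 44 listed pseudogene rows added to their parents, and the libraries left out.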

Additional observations from a re-analysis of the deposited data

How the results depend on the processing

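The number of ribosomal protein genes called lower, 27, depended on scaling and on single libraries. It was 44 with equal totals, 42 with quantile normalization and 46 without both libraries numbered 4, a setting chosen after seeing the data, and it ranged from 8 to 52 when 1 library was left out. The cause was not tested. All 27 remained called with equal totals and with quantile normalization. Same-numbered libraries had correlations of their deviations of 0.22, 0.35, -0.08 and 0.12, beside -0.21 to 0.24 for the 12 other pairs. The numbers were not taken as pairs, since 1 of the 4 was below 0.1 and the labels tie them to nothing shared. Under a replicate block 35 members were called lower, 27 of them shared. In the paired exact test, whose smallest p is 0.125, the pair ratios were -0.54 for Rpl22l1, 0.36 for Rpl36al, 1.11 for Rps27l and 0.75 for Rps4l. Leaving out 1 library gave 0.32 to 0.42 for Rpl36al and 0.58 to 0.89 for Rps4l, with the p lost as given beside these pairs. Under all settings run, the count of all called genes was 2638 to 3815, the count of members called higher was 1, and the members' median was -0.17 to -0.35. The difference in summed signal was -3976 CPM without B6 library 3 and -8063 CPM without B6 library 4. No member called in the main fit changed sign under the settings run on uncentred values. Members with fold changes near 0, such as Rpl36 and Rpl38, are not covered by this statement.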
